A study of Arabidopsis thaliana with 30 samples.

Results

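The 10 genes described here encode stress-induced ERF transcription factors of Arabidopsis thaliana: ERF6, ERF5, ERF104, ERF1A, ERF2, ERF1, ERF109, ERF11, ABR1 and AT1G71520. They were chosen by gene ID, with their behaviour under antimycin A in these data already known, so their changes with the inhibitor are a description and carry no test. Of the 10 genes, 8 were listed in at least 1 of the 5 deposited tables, 5 were listed in all 5, and ERF104 and ERF11 were listed in none. The tables hold 6297 genes in all, of which 1125 are in every table.

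RNA was sequenced from whole seedlings, 10 days old, that had been grown on upright plates of half-strength Murashige and Skoog medium and then moved to wells of liquid medium, where they received 50 µM antimycin A for 5 h or a mock treatment. Antimycin A blocks complex III of the mitochondrial respiratory chain. The lines were the mutant snrk1a (allele snrk1a-2), of a catalytic subunit of the energy-sensing kinase SnRK1, the mutant jmj15 (jmj15-2), of a histone demethylase, the mutant crf6 (crf6-2), of a cytokinin response factor, the SnRK1a overexpressor SnRK1aOX, and wild type Col-0 (WT). Each line had 3 libraries with antimycin A and 3 mock libraries, 30 in all. The labels give neither the promoter of the overexpressor nor the number of cultures behind the libraries of a group, and p-values measure only the spread between libraries, which may be technical.

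Every table is restricted to genes called by the authors within its line, with a log2 fold change above 1 or below -1 and q below 0.05, as the values show. A gene that is not listed in a table is therefore unlisted, not unchanged. KIN10, JMJ15 and CRF6 themselves are not among the listed genes, so the line labels could not be checked against them. The values are normalised read counts, normalised separately in each table, so levels were tested within a line or as differences of within-line changes only. Depth is unknown. In bulk seedlings, fewer cells that carry a transcript and less of it per cell cannot be told apart.

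ERF proteins share the AP2/ERF DNA-binding domain and are a large family of plant transcription factors. Many act downstream of ethylene, jasmonate and stress-activated MAP kinases, bind GCC boxes in promoters of defence genes, and are themselves switched on within hours of wounding, pathogens, oxidative or osmotic stress. Others carry a repression motif and limit the same responses.

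The annotation places both transcripts of the ERF6 and ERF1A pair next to each other on chromosome 4, ERF6 (AT4G17490) at 9752824 to 9754161 on the minus strand and ERF1A (AT4G17500) at 9759203 to 9760391 on the plus strand, with 5041 bases between them (TAIR10.1). ERF2 (AT5G47220, chromosome 5, 19171643 to 19172956, minus strand) and ERF5 (AT5G47230, 19179881 to 19181182, plus strand) stand in the same divergent arrangement, with AT5G47229 between them. ERF1 (AT3G23240, chromosome 3, 8295617 to 8296604) neighbours ERF98, another ERF, and ERF11 (AT1G28370, chromosome 1, 9955774 to 9956980) neighbours ERF12. ERF104 (AT5G61600, chromosome 5, 24766344 to 24767732) lies beside AT5G61590, also an ERF. ABR1 (AT5G64750) spans 25891449 to 25893888 of chromosome 5 and AT1G71520 spans 26938369 to 26939267 of chromosome 1. ERF109 (AT4G34410) spans 16451876 to 16453260 of chromosome 4. ABR1 has 2 exons and the other 9 genes have 1. No stretch of 50 bases of any of the 10 genes recurred elsewhere on the nuclear chromosomes. ERF109 overlaps AT4G34412 on the other strand by 301 bases and also the long noncoding RNA gene AT4G08985 on that strand, and ABR1 overlaps AT5G64760 by 109 bases, so reads there could not be assigned without strand, which nothing in the labels records. None of these overlapping genes was listed in any table.

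AT1G71520 and ABR1 had calls of a difference between lines that were near the limit, as given below. ERF109 had the highest change in WT, and ERF1A and ERF2 share a stretch of sequence. The 300 bases before the annotated start of these 5 genes are shown. They were read from the RefSeq genome TAIR10.1 at chr1:26938069-26938368 on the plus strand for AT1G71520, chr5:25891149-25891448 on the plus strand for ABR1, chr4:16451576-16451875 on the plus strand for ERF109, chr4:9758903-9759202 on the plus strand for ERF1A and chr5:19172957-19173256 on the minus strand for ERF2. Capitals mark matches to the motifs searched on both strands.
AT1G71520: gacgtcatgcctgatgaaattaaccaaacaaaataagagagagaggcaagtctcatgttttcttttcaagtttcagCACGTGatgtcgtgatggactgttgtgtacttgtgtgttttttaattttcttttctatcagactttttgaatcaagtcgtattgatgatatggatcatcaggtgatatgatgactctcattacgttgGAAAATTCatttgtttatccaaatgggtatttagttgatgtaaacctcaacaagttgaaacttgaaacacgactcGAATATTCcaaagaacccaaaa
ABR1: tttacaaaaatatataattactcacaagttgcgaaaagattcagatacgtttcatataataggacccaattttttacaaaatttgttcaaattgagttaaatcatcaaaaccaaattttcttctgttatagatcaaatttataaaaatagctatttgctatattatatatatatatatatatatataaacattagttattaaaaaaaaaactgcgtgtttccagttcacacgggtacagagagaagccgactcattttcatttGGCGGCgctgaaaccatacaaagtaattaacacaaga
ERF109: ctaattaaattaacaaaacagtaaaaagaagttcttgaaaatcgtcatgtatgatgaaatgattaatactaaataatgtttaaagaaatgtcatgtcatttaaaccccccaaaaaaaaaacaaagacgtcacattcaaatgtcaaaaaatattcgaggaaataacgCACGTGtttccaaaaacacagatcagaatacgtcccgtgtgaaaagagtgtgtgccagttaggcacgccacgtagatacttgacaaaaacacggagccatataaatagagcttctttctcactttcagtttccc
ERF1A: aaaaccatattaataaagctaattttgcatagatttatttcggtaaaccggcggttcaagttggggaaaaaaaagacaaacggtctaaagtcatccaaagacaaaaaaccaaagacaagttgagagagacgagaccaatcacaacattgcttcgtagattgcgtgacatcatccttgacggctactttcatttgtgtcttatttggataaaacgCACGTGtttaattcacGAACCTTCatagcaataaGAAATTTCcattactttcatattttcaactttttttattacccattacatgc
ERF2: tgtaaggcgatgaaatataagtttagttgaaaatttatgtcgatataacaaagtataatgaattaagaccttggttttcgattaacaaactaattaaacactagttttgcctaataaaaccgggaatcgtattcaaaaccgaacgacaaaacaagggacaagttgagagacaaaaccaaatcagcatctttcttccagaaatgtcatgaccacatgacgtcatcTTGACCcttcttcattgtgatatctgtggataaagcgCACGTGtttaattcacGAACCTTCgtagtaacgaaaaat

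The G box CACGTG was in 4 of the 10 promoters (ERF109, ERF1A, ERF2 and AT1G71520), against 7.09% of the 27443 promoters of nuclear protein-coding genes taken in the same way. The heat shock element GAANNTTC was in 5 of 10, against 11.5% of all promoters. A GCC box (GCCGCC), the site that ERF proteins themselves bind, was in 2 of 10, ABR1 and ERF11, against 2.26%, and a W box (TTGACC or TTGACT) in 3 of 10, against 32.3%. The DRE core ACCGAC was in ERF5 alone (5.45% of all promoters). Of the 300 bases before ERF5, 156 lie within the gene AT5G47229. The DRE core and the W box of ERF5 both fall in that stretch. The rapid stress element CGCGTT (3.08%) and the mitochondrial dysfunction motif (0.860%) were in none of the 10. ERF6 held none of the 7 motifs in this window. No matches in these promoters overlapped. With 10 genes, these shares are a description, and a match is no evidence of a bound site.

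ERF1A and ERF2, on chromosomes 4 and 5, had 26 bases in common.
Shared by ERF1A and ERF2: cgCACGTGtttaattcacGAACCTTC
The run holds the G box and a heat shock element at the same spacing. It began 88 bases before the start of ERF1A and 41 bases before that of ERF2, and it occurred only at these 2 places of the nuclear genome. Over the other pairs of the 10 promoters, of 45 pairs in all, the longest run in common was 13 bases. This comparison was made after the sequences had been seen.

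With antimycin A, every listed ERF was higher in every line that listed it. The authors' deposited tables listed 8 of the 10 genes as higher in snrk1a, where 7.17% of all tested genes were listed as higher, 8 in jmj15 (6.62%), 8 in crf6 (6.97%), 5 in SnRK1aOX (5.55%) and 7 in WT (5.83%). These percentages give the background, and since the genes were chosen for these changes nothing is read from the counts. In all 36 pairs of gene and line, each antimycin A library was above each mock library. Among all genes listed as higher that held for between 95.7% (snrk1a) and 97.8% (jmj15). The median of the listed ERFs in the authors' deposited tables was a log2 fold change of 2.404 in snrk1a, 2.73 in jmj15, 2.05 in crf6, 2.23 in SnRK1aOX and 2.16 in WT. Over all genes listed as higher it was 1.55, 1.71, 1.51, 1.55 and 1.50 in the same lines. Nearest to the authors' limit was ERF1, at a log2 fold change of 1.00 in WT and 1.02 in crf6 in the authors' deposited tables. Genes just outside the limit are unlisted, so their values were not analysed here.

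**Figure D1:**
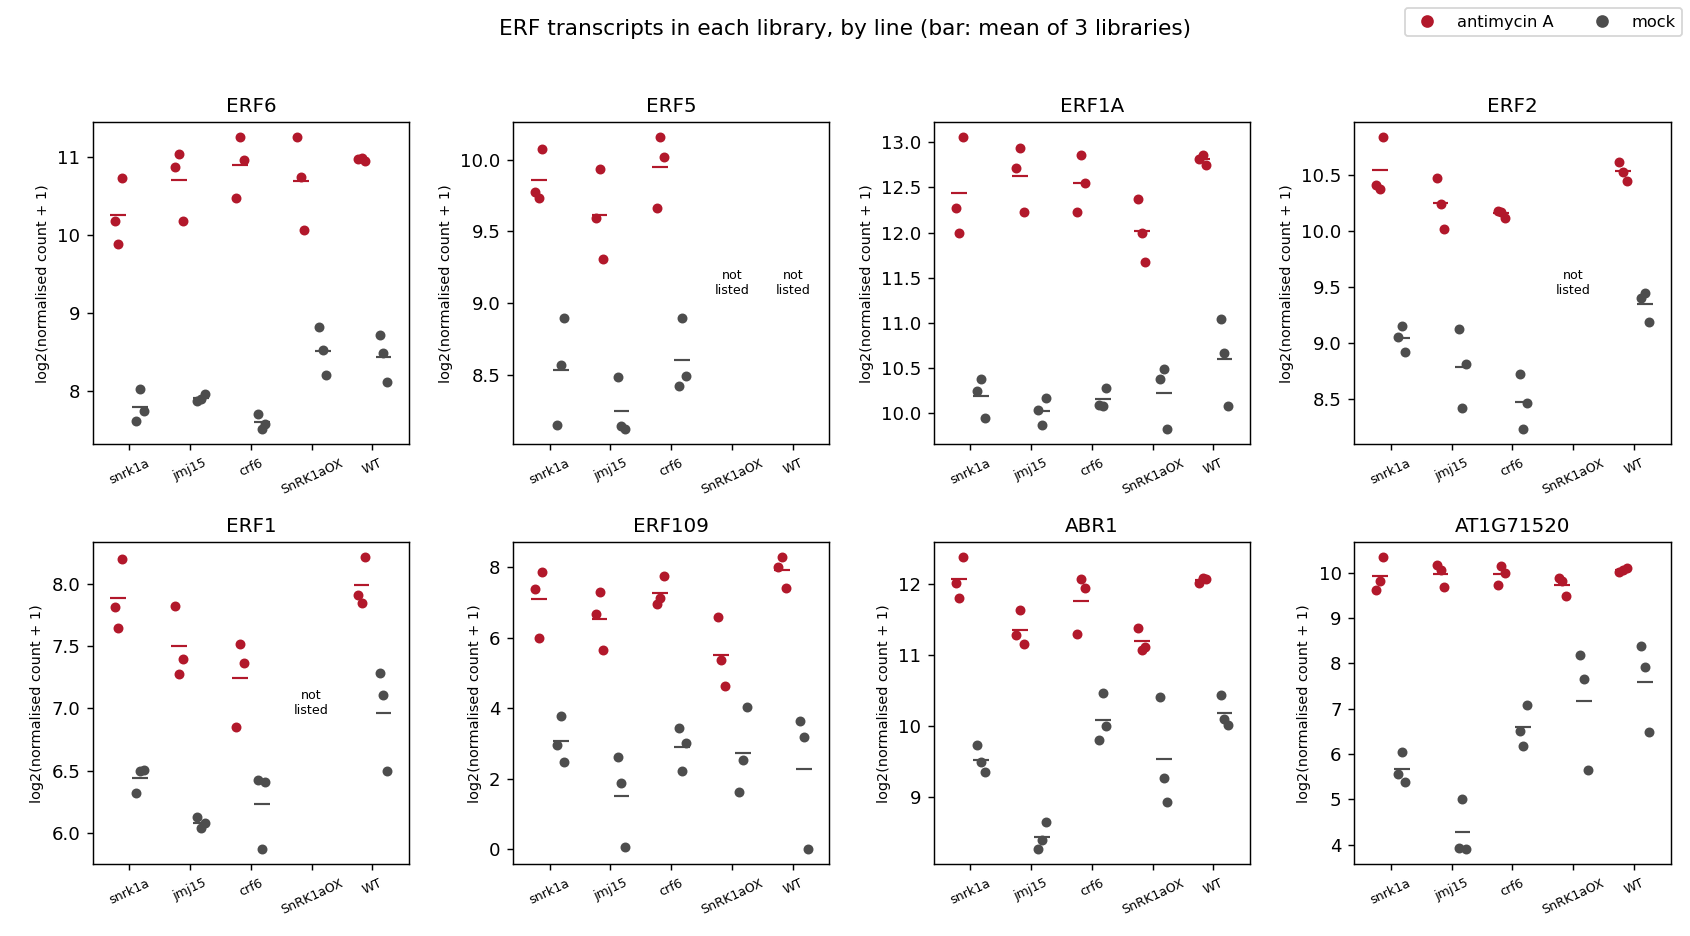
Normalised count of each listed ERF, as log2(value + 1), in the 3 antimycin A and 3 mock libraries of each line, with a bar at the mean of 3 libraries. Antimycin A libraries lie above mock libraries in every panel and line, and the mock libraries of AT1G71520 range from 13.9 in jmj15 to 331 in WT.

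The values in brackets below are log2 changes, the mean log2(value + 1) of the treated libraries less that of the mock libraries, ± the standard error from limma (n = 3 libraries per group). The size of a change depends on the amount added where values are low, as for ERF109. Values per library are normalised counts, in the order of the replicates 1, 2 and 3.

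ERF6 is phosphorylated by the MAP kinases MPK3 and MPK6 and restrains leaf growth under osmotic stress. In snrk1a it had 1158, 942 and 1695 with antimycin A, against 196, 261 and 214 under mock, a change of 2.46 ± 0.25. In jmj15 it had 1879, 2109 and 1161 with the inhibitor, against 234, 237 and 248 under mock (2.79 ± 0.23). The crf6 libraries held 1422, 2445 and 1988 with antimycin A, against 208, 181 and 191 under mock (3.30 ± 0.21). SnRK1aOX had 2437, 1712 and 1070.0 with antimycin A, against 451, 369 and 295 under mock (2.17 ± 0.31). WT had 2012, 2032 and 1978 with antimycin A, against 420.5, 357 and 278 under mock (2.53 ± 0.18). The treated WT libraries lay close together, while those of the other 4 lines were spread more widely.

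ERF5, a close relative of ERF6 with a like role in growth under stress, was listed only in the mutants. In snrk1a it had 876, 851 and 1076 with antimycin A, against 283, 379 and 476 under mock (1.32 ± 0.23). In jmj15 it had 770.1, 979 and 633 with antimycin A, against 359, 282 and 278 under mock (1.36 ± 0.21). In crf6 it had 811, 1141 and 1035 with antimycin A, against 342, 475 and 359.6 under mock (1.34 ± 0.20). The 3 estimates lay within 1 standard error of each other. Since neither SnRK1aOX nor WT listed the gene, no difference of its response from WT could be tested. ERF104, a MAP kinase substrate in the response to bacterial flagellin, was listed in no table.

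ERF1A, an activator that binds the GCC box and the divergent neighbour of ERF6, had log2 changes from 1.78 to 2.601 over the 5 lines. It had 4941, 4081 and 8525 with antimycin A in snrk1a, against 1216, 1335 and 984 under mock (2.25 ± 0.26). In jmj15 the libraries held 6736, 7849 and 4809 with antimycin A, against 1052, 935 and 1154 under mock (2.601 ± 0.19). In crf6 they held 4788, 7400.0 and 6000.1 with antimycin A, against 1093, 1086 and 1244 under mock (2.39 ± 0.17). Replicate 3 of treated snrk1a held more than the other treated libraries of that line, and replicate 3 of treated jmj15 held less than its own. SnRK1aOX libraries had 5287, 4074 and 3269 with antimycin A, against 1331, 1434 and 905 under mock (1.78 ± 0.24). WT libraries had 7217, 7439 and 6888 with antimycin A, against 2112, 1624 and 1086 under mock (2.21 ± 0.22). The order of these estimates over the lines changed with median ratio scaling. The change of ERF1A then came to 3.07 for snrk1a, 1.88 for jmj15, 2.53 for crf6 and 0.86 for SnRK1aOX, against 3.09 for WT. That scaling centres tables that hold only changed genes, so it shifts the changes of a line by construction.

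ERF2, also an activator at GCC boxes, showed smaller changes than ERF6 in the 4 lines that listed it. It had 1354, 1324 and 1826 with antimycin A in snrk1a, against 529, 567 and 483 under mock (1.50 ± 0.19). In jmj15 it had 1419, 1210.2 and 1037 with antimycin A, against 557, 342 and 449 under mock (1.46 ± 0.21). Among treated jmj15 libraries replicate 1 was the highest for ERF2 and replicate 2 for ERF1A, while replicate 3 was the lowest for both. Replicate 3 of treated snrk1a was the highest for both genes. In crf6 ERF2 had 1159, 1152 and 1108 with antimycin A, against 421, 299 and 352 under mock (1.68 ± 0.17). WT held 1565, 1474 and 1393 with antimycin A, against 677, 697 and 583 under mock (1.18 ± 0.15). ERF2 was not listed in SnRK1aOX.

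ERF1, a target of the ethylene regulator EIN3 that joins ethylene and jasmonate signals at defensin genes, changed least among the listed genes in WT and crf6. In snrk1a ERF1 had 224, 199.5 and 293 with antimycin A, against 79.2, 89.3 and 90.0 under mock (1.44 ± 0.26). In jmj15 ERF1 had 225, 154 and 168 with antimycin A, against 68.9, 64.7 and 66.8 under mock (1.42 ± 0.26). Its groups did not overlap, and the gap between them was narrower in crf6 and WT than in these mutants. The crf6 libraries had 114, 182 and 164 with antimycin A, against 84.9, 57.5 and 84.1 under mock (1.01 ± 0.31). The WT libraries had 239, 229 and 296 with antimycin A, against 155, 137 and 89.2 under mock (1.03 ± 0.27). SnRK1aOX did not list ERF1. ERF11, a repressor of the ethylene synthesis genes ACS2 and ACS5, was listed in no table.

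ERF109, also called RRTF1, is a regulator of redox responses that links jasmonate to auxin synthesis. No mock library of any line held more than 15.4 normalised counts of it. In snrk1a ERF109 had 167, 62.8 and 233 with antimycin A, against 6.74, 12.6 and 4.59 under mock (4.02 ± 0.56). In jmj15 ERF109 had 101, 155 and 49.6 with antimycin A, against 5.08, 2.69 and 0.0368 under mock (5.03 ± 0.75). In crf6 ERF109 had 122, 139 and 216 with antimycin A, against 9.78, 3.63 and 7.15 under mock (4.39 ± 0.45). The treated libraries of 1 line differed by several fold, as in snrk1a, where replicate 2 held the least. In SnRK1aOX ERF109 had 94.6, 40.1 and 23.6 with antimycin A, against 2.097, 4.81 and 15.4 under mock (2.79 ± 0.74). In WT ERF109 had 257, 311 and 170.4 with antimycin A, against 11.5, 8.11 and 0 under mock (5.63 ± 0.86), where mock replicate 3 was listed at 0. With mock values this low the size is loosely fixed. The change in WT was 4.49 without mock replicate 3, and it was 6.004 with 0.5 added to the values and 3.98 with 10 added. Mean treated levels lay between 52.8 in SnRK1aOX and 246 in WT, a 4.66-fold range across tables that was not tested.

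ABR1, a repressor of abscisic acid responses that is also induced by wounding, had mock levels that differed more between lines than its treated levels. In snrk1a ABR1 had 4113, 3558 and 5308 with antimycin A, against 849, 715 and 654 under mock (2.54 ± 0.19). In jmj15 ABR1 had 2474, 3171 and 2268 with antimycin A, against 306, 334 and 398 under mock (2.92 ± 0.17). All 3 mock libraries of jmj15 lay below every mock library of the other lines. For how many of all genes this held was not counted. In crf6 ABR1 had 2503, 4268 and 3904 with antimycin A, against 894, 1406 and 1020.1 under mock (1.67 ± 0.24). SnRK1aOX held 2666, 2143 and 2208 with antimycin A, against 1348, 617 and 485 under mock (1.65 ± 0.36). In WT ABR1 had 4122, 4346 and 4264 with antimycin A, against 1379.9, 1092 and 1026 under mock (1.87 ± 0.15). Over the 5 lines, mean treated levels spanned 1.85-fold and mean mock levels 3.37-fold, across tables and without a test.

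AT1G71520 encodes an AP2/ERF protein of the DREB branch that RefSeq describes only by its DNA-binding domain. In snrk1a AT1G71520 had 788, 902 and 1302 with antimycin A, against 46.3, 64.8 and 40.9 under mock (4.27 ± 0.28). In jmj15 AT1G71520 had 1147, 1068 and 829 with antimycin A, against 14.2, 31.0 and 13.9 under mock (5.70 ± 0.35). All mock libraries of jmj15 lay below all mock libraries of the other 4 lines. Here too the share of all genes with such a separation was not counted. In crf6 AT1G71520 had 849.7, 1140.3 and 1023 with antimycin A, against 90.6, 71.4 and 135 under mock (3.37 ± 0.27). SnRK1aOX libraries held 947, 909 and 715 with antimycin A, against 290.4, 199 and 49.3 under mock (2.57 ± 0.59). WT libraries held 1035, 1075 and 1094 with antimycin A, against 331, 241 and 88.0 under mock (2.47 ± 0.41). Replicate 3 was the lowest mock library in both SnRK1aOX and WT. Mean treated levels of the 5 lines spanned 1.25-fold, from 857 in SnRK1aOX to 1068 in WT, while mean mock levels spanned 11.2-fold, from 19.7 in jmj15 to 220.3 in WT. These spans set levels across tables and were not tested.

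**Figure D2:**
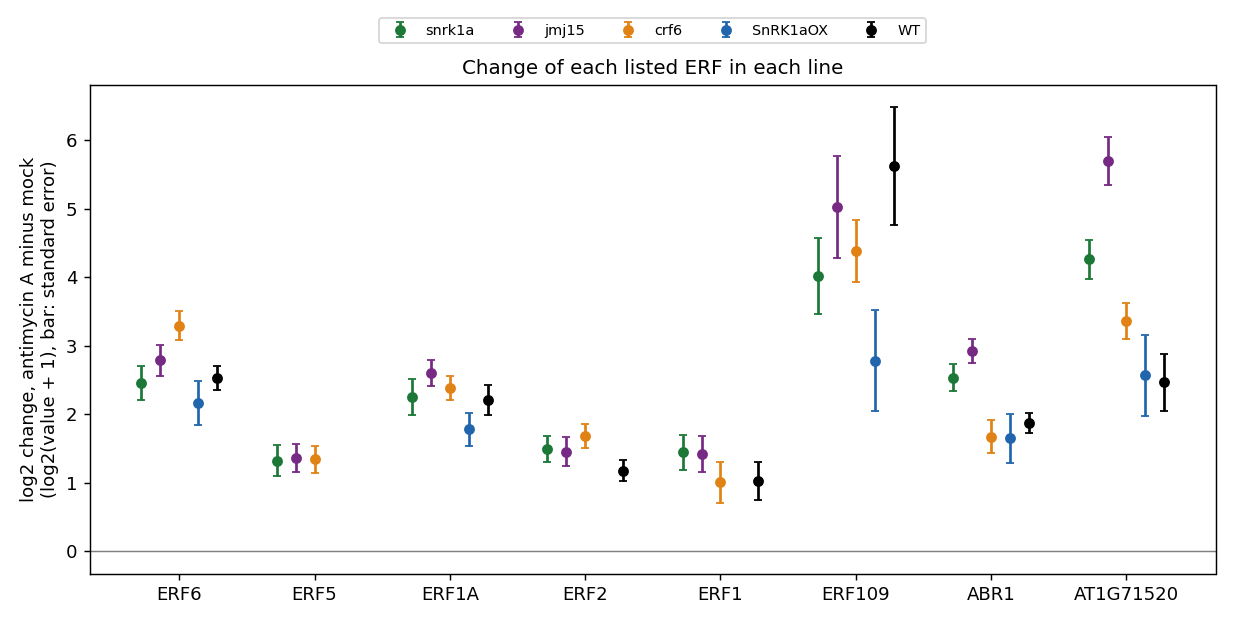
Change of each listed ERF with antimycin A in each line, as the difference of log2(value + 1) from mock (points) with its standard error (bars, n = 3 libraries per group). AT1G71520 spans 2.47 in WT to 5.70 in jmj15 and ERF109 spans 2.79 in SnRK1aOX to 5.63 in WT, while ERF5, ERF2 and ERF1 stay between 1.01 and 1.68.

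The study's lines ask whether SnRK1, JMJ15 and CRF6 alter the response. The difference of the changes was tested with limma over all genes listed in both tables of a pair of lines, 2-sided, with Benjamini-Hochberg adjustment over those genes. A gene had to be called in both lines to be tested, which leaves out genes that respond in 1 line only. The authors' calls rest on the same libraries and favour genes with a small spread. The ERFs were also chosen with their changes known. The adjusted p-values may therefore be too low. All comparisons with WT share the same WT libraries. Of 31 differences tested for the ERFs in 5 pairs of lines, 2 passed an adjusted p of 0.05, both in jmj15 minus WT.

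AT1G71520 and ABR1 had larger changes in jmj15 than in WT. For AT1G71520 the difference was 3.23 ± 0.59 (95% interval 1.95 to 4.51, adjusted p = 0.0200). For ABR1 it was 1.05 ± 0.23 (95% interval 0.55 to 1.54, adjusted p = 0.0386). Of the 2057 genes tested, 46 passed (2.24%), 34 with a larger value in jmj15 (1.65%) and 12 with a smaller one (0.583%), and 2 of the 7 ERFs tested passed, both with the larger value. This count of genes is unstable: it was 0 without the trend in limma's variance, and over the fits without 1 library it lay between 5, without treated WT replicate 1, and 118, without mock WT replicate 3. With median ratio scaling 4 genes had a larger and 1367 a smaller value in jmj15. The median difference was 0.39 over the 7 ERFs and 0.14 over all genes tested. ERF109 gave -0.60 ± 1.26 (95% interval -3.32 to 2.119, adjusted p = 0.935), and ERF6, ERF2, ERF1 and ERF1A gave differences between 0.26 and 0.39, whose intervals all included 0. Both calls were near the limit. Without 1 library, AT1G71520 stayed called in 5 of 12 fits and ABR1 in 3 of 12. The adjusted p of AT1G71520 was 0.0701 and 0.0720 without treated jmj15 replicates 1 and 2 and 0.0530 without mock jmj15 replicate 1. It was 0.0675, 0.0573 and 0.0541 without treated WT replicates 1, 2 and 3 and 0.0555 without mock WT replicate 2. Its lowest was 0.000628, without mock WT replicate 3, which held the lowest WT mock value. The adjusted p of ABR1 was 0.0851 and 0.101 without treated jmj15 replicates 1 and 2, and 0.104 and 0.0656 without mock jmj15 replicates 1 and 2. It was 0.105, 0.0895 and 0.0855 without treated WT replicates 1, 2 and 3, and 0.0716 and 0.0692 without mock WT replicates 1 and 2. The differences themselves stayed between 2.84 and 3.79 for AT1G71520 and between 0.91 and 1.15 for ABR1. Without the trend in limma's variance the adjusted p was 0.0622 for AT1G71520 and 0.0959 for ABR1. Rescaling the libraries by the median ratio over the listed genes moved the median difference of all genes to -1.42 and turned the sign of ABR1, to -0.55, while relative to that median AT1G71520 stood at 3.07 and ABR1 at 0.86, against 3.09 and 0.91 with the authors' scaling.

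Set side by side across the tables, the mock levels of these 2 genes stood further apart between jmj15 and WT than the treated levels. On the log2(value + 1) scale, mock jmj15 minus mock WT was -3.32 for AT1G71520 and -1.75 for ABR1. The same quantity had a median of -0.49 over the 1125 genes in every table (quartiles -0.97 and -0.08) and of -0.60 over the 660 of them that were higher in every line. In the treated libraries it was -0.09 for AT1G71520 and -0.70 for ABR1, against a median of -0.27 over the 1125 genes. The treated value less the mock value is the difference of changes itself, so these values add no separate evidence. The tables were normalised separately, so this was not tested.

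**Figure D3:**
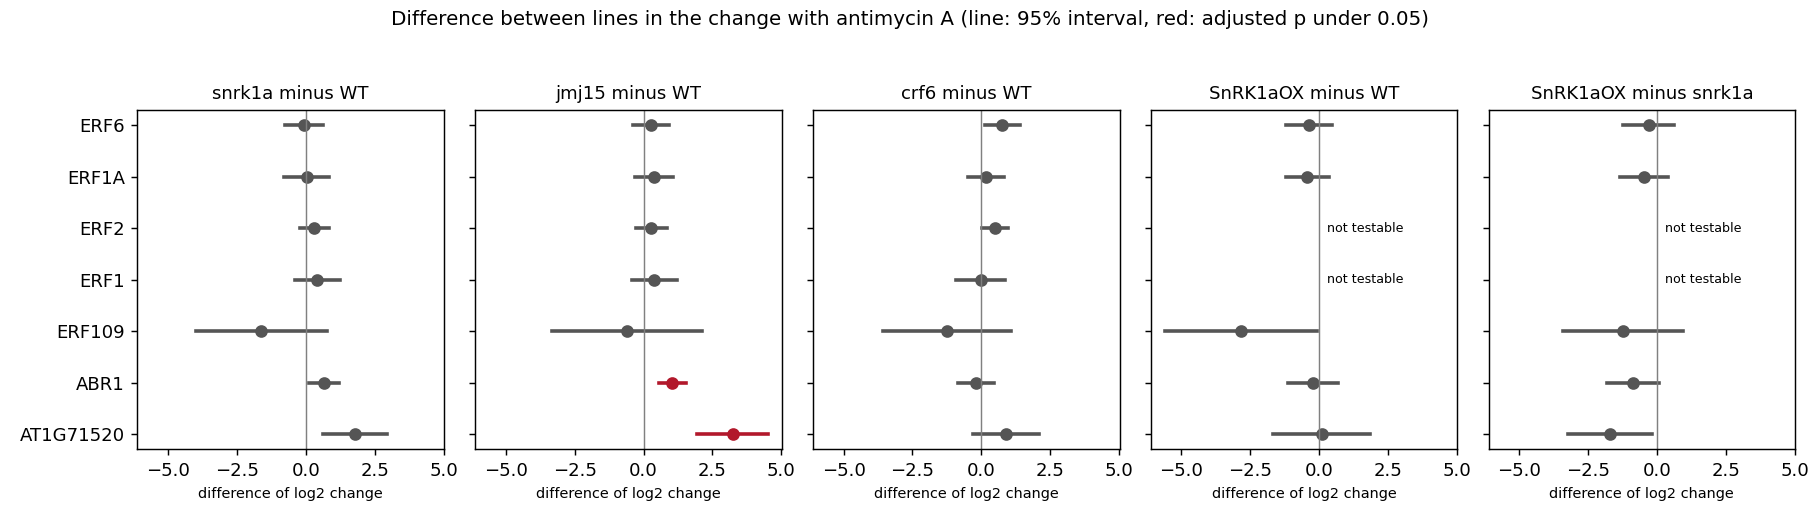
Difference between lines in the log2 change with antimycin A for the 7 ERFs listed in both tables of at least 1 pair (points) with 95% intervals (lines), red where the limma adjusted p was under 0.05. The 2 red points are AT1G71520 at 3.23 and ABR1 at 1.05, both in jmj15 minus WT.

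In snrk1a minus WT no ERF passed. By limma 0 of the 2440 genes tested were called (0%), and 184 had an unadjusted p under 0.05, among them AT1G71520 and ABR1. AT1G71520 gave 1.79 ± 0.54 (95% interval 0.63 to 2.96, adjusted p = 0.554) and ABR1 gave 0.66 ± 0.26 (95% interval 0.10 to 1.22, adjusted p = 0.607). ERF109 gave -1.61 ± 1.12 (95% interval -3.999 to 0.78, adjusted p = 0.76). ERF6 and ERF1A, at -0.07 ± 0.32 and 0.04 ± 0.38, lay close to 0, with intervals of -0.77 to 0.63 for ERF6 and -0.78 to 0.86 for ERF1A, and under the median ratio scaling ERF1A came to -0.02. ERF2 and ERF1 gave 0.32 ± 0.25 and 0.42 ± 0.38. Without mock WT replicate 3, where ERF109 was listed at 0, its difference was -0.47.

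In crf6 minus WT no ERF passed either. By limma 0 of 2440 genes were called (0%), and 110 had an unadjusted p under 0.05, among them ERF6 and ERF2. ERF6 gave 0.77 ± 0.29 (95% interval 0.14 to 1.39, adjusted p = 0.996) and ERF2 gave 0.50 ± 0.21 (95% interval 0.04 to 0.97, adjusted p = 0.996). AT1G71520 gave 0.90 ± 0.55 (95% interval -0.29 to 2.09, adjusted p = 0.996). ABR1 and ERF109 gave -0.20 ± 0.30 and -1.24 ± 1.08, and ERF1A and ERF1 gave 0.18 ± 0.30 and -0.02 ± 0.41. The -1.24 of ERF109 was -0.10 without mock WT replicate 3.

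In SnRK1aOX minus WT 2 of 1530 genes passed (0.131%), 1 in each direction (0.0654%), and none of the 5 ERFs tested was among them. ERF109 gave -2.84 ± 1.27 (95% interval -5.60 to -0.08, adjusted p = 0.499), an interval that barely left out 0 before adjustment, and the difference was -1.702 without mock WT replicate 3. The other 4 gave differences between -0.43 and 0.10, and AT1G71520 gave 0.10 ± 0.81 (95% interval -1.66 to 1.86, adjusted p = 0.984). Between the overexpressor and the mutant of the same kinase, SnRK1aOX minus snrk1a, 1 of 1575 genes passed (0.0635%) and again no ERF. The estimates of all 5 ERFs lay below 0. They were -1.69 for AT1G71520, -1.23 for ERF109, -0.88 for ABR1, -0.47 for ERF1A and -0.29 for ERF6, none of them called. Their median was -0.88, against 0.10 over all genes tested (quartiles -0.25 and 0.50). ERF6 came to 0.017 in 1 of the fits without 1 library. For AT1G71520 the test gave -1.69 ± 0.71 (95% interval -3.23 to -0.16, adjusted p = 0.485). Without mock SnRK1aOX replicate 3, where AT1G71520 stood at 49.3 against 290 and 199 in the other mock libraries, that difference was -2.45 with an adjusted p of 0.0428. This was the only fit without 1 library in which that difference passed. Over all such fits it lay between -2.45 and -1.18. The 5 genes were measured in the same libraries and are not independent.

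In several groups the ERFs shared their high and low libraries. In treated snrk1a, replicate 3 was the highest library for 8 of 8 ERFs, as it was for 72.4% of all genes listed as higher in that line. Replicate 2 of the same group was the lowest for 7 of 8, against 57.8% of the higher genes. In treated jmj15, replicate 3 was the lowest for 7 of 8, against 65.9% of the higher genes. In treated crf6, replicate 1 was the lowest for 7 of 8 (55.7%). In treated SnRK1aOX, replicate 1 was the highest for 5 of 5 (65.3%). In mock WT, replicate 3 was the lowest for 7 of 7 (48.4%) and replicate 1 the highest for 6 of 7 (64.9%).

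**Figure D4:**
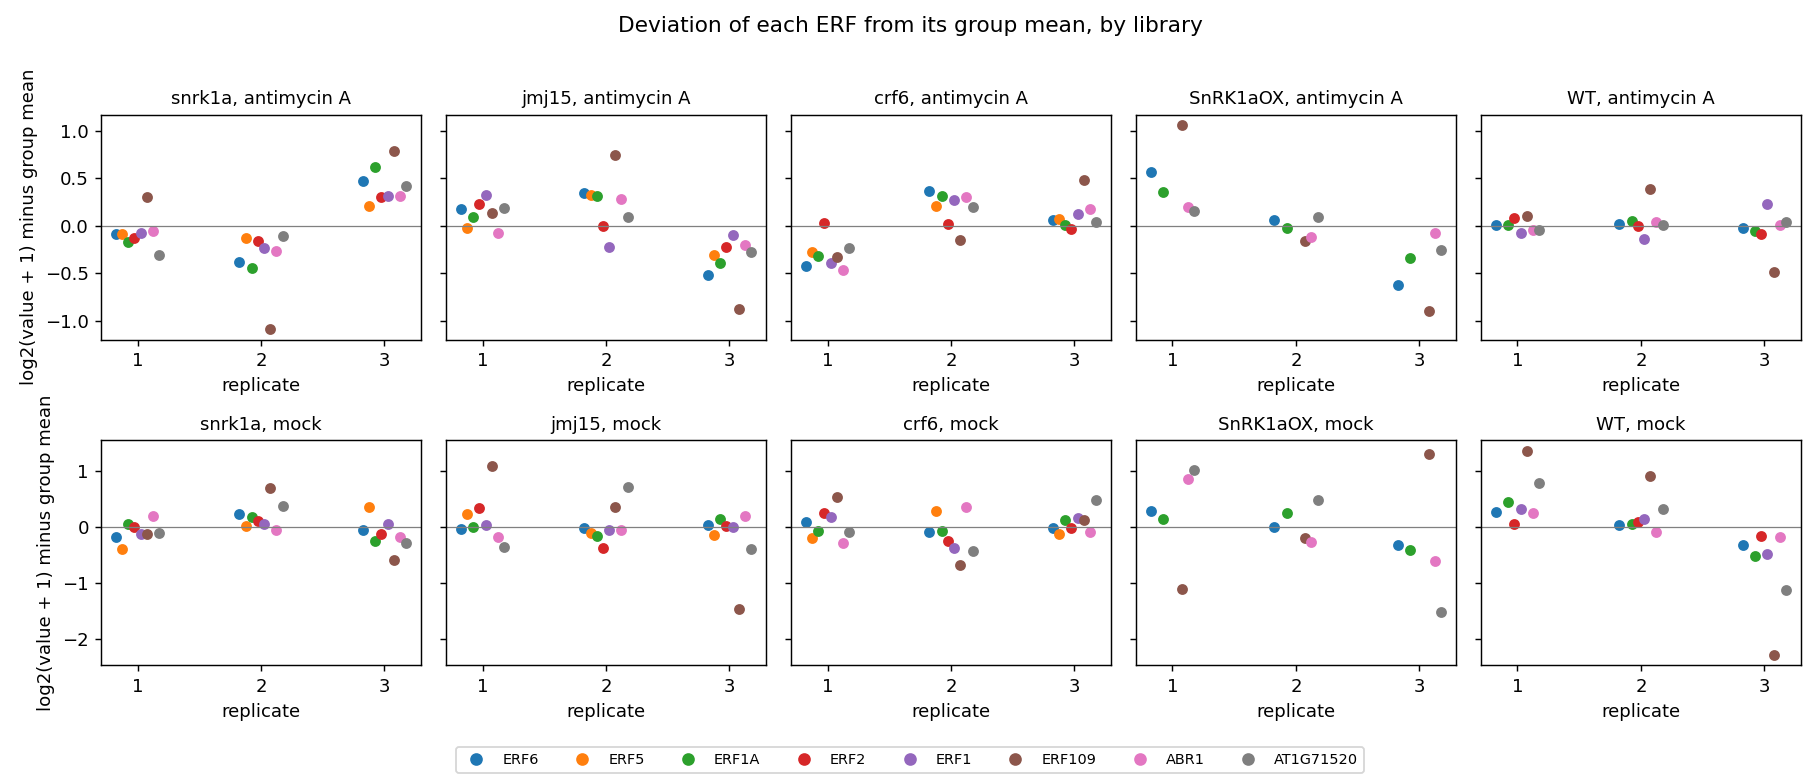
Deviation of each listed ERF from its group mean, in log2(value + 1), for replicates 1 to 3 of each line with antimycin A (top) and mock (bottom). All points lie above 0 for replicate 3 of treated snrk1a (8 of 8 highest) and all lie below 0 for replicate 3 of mock WT (7 of 7 lowest).

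Other ERFs of the same subgroups were listed as higher only. Of 23 others in groups VIII, IX and X, 7 were listed as higher in snrk1a, 7 in jmj15, 6 in crf6, 3 in SnRK1aOX and 4 in WT, none as lower in any line, and 14 in no table. As background, the authors listed 7.17% of all tested genes as higher and 10.1% as lower in snrk1a, 6.62% and 6.04% in jmj15, 6.97% and 7.71% in crf6, 5.55% and 3.67% in SnRK1aOX, and 5.83% and 8.84% in WT. With lists this short, each count below is to be read against those shares, and nothing particular to a list is read from it. The median log2 fold change of those listed was 1.88 in snrk1a, 1.80 in jmj15, 2.00 in crf6, 1.23 in SnRK1aOX and 1.89 in WT in the authors' deposited tables, beside the medians of all higher genes given above. RAP2.6, an ERF of the same group as ABR1, had a log2 fold change of 2.17 in snrk1a, 1.80 in jmj15, and 1.41 in crf6, against 1.95 in WT in the authors' deposited tables. ERF14, an inducer of defensin genes, had 3.96 in jmj15, 3.36 in crf6, 2.32 in SnRK1aOX and 2.91 in WT in the authors' deposited tables. Its values were low, with means of 11.2 with antimycin A and 0.622 under mock in jmj15, 13.8 and 1.23 in crf6, 19.7 and 3.85 in SnRK1aOX, and 15.2 and 1.91 in WT, so the sizes of its changes are loosely fixed. ERF98, the neighbour of ERF1, had 2.65 in snrk1a, 2.83 in jmj15 and 2.63 in crf6 in the authors' deposited tables. ERF13 had 1.38 in snrk1a and 2.41 in crf6 in the same authors' deposited tables.

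Of the 5 group VII ERFs, which sense low oxygen or act downstream of that sensing, HRE2 was listed as higher in every line and the other 4 in none. Its log2 fold change in the authors' deposited tables was 2.63 in snrk1a, 2.298 in jmj15, 2.14 in crf6, 2.22 in SnRK1aOX and 1.89 in WT. Of 27 genes of the DREB branch, 8 were listed as higher and 2 as lower in snrk1a, 7 and 2 in jmj15, 4 and 3 in crf6, 3 and 1 in SnRK1aOX, and 4 and 3 in WT. The counts listed as lower were near the background, at 1 to 3 of 27 genes. TINY2 was listed as lower in every line, and TINY in every line but SnRK1aOX. Recurrence was common, with 1125 of the 6297 listed genes in all 5 tables, so nothing is read from it. Over all listed DREB genes, higher and lower together, the median in the authors' deposited tables lay between 1.25 in crf6 and 2.18 in SnRK1aOX. DREB2A, an activator of heat and drought responses, was listed as higher in every line, with 2.83 in snrk1a, 3.45 in jmj15, 2.92 in crf6, 2.95 in SnRK1aOX and 3.30 in WT in the authors' deposited tables. AT1G22810 had 4.53 in snrk1a, 3.32 in jmj15 and 2.63 in crf6, against 3.43 in WT in the authors' deposited tables. AT1G19210 had 2.84 in snrk1a and 2.05 in WT in the authors' deposited tables, and it was also listed as higher in jmj15, where its mock libraries were listed at or near 0. AT5G21960 was listed as higher in SnRK1aOX alone, also from mock values at or near 0.

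Genes of ethylene synthesis were listed in both directions. Of 14, the authors listed 6 as higher and 4 as lower in snrk1a, 3 and 3 in jmj15, 2 and 1 in crf6, 1 and 0 in SnRK1aOX, and 1 and 1 in WT. The counts in crf6, SnRK1aOX and WT were near the shares of all genes. ACO5 was listed as lower in every line but SnRK1aOX, and nothing is read from that recurrence. Medians were taken over all listed genes of ethylene synthesis, higher and lower together. They were 1.102 in snrk1a, 0.14 in jmj15, 1.03 in crf6, 1.68 in SnRK1aOX and -0.21 in WT in the authors' deposited tables. A median between -1 and 1 mixes both directions, since no listed gene lies there. ACS2, an ACC synthase, was listed as higher in the 4 lines other than WT, with log2 fold changes of 2.35 in snrk1a, 2.79 in jmj15, 1.83 in crf6, and, as the lowest, 1.68 in SnRK1aOX in the authors' deposited tables. ACS5 had -1.84 in snrk1a and -2.05 in jmj15 in the authors' deposited tables, and in snrk1a alone ACS9 had -2.36 and ACS11 1.86. None of the 12 genes of ethylene perception and signalling, from the receptors to EIN3, was listed in any line. Among 6 MAP kinases and kinase kinases known to act on ERFs, MKK9 alone was listed, as higher in all 5 lines, with 1.50 in snrk1a, 1.73 in jmj15, 1.93 in crf6, 1.05 in SnRK1aOX and 1.66 in WT in the authors' deposited tables.

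Of 15 genes known as targets of the ERFs described here, 6 were listed as higher and 2 as lower in snrk1a, 5 and 2 in jmj15, 5 and 1 in crf6, 1 and 0 in SnRK1aOX, and 2 and 1 in WT, and 7 were listed in no table. The counts in SnRK1aOX and WT, and those listed as lower, were near the shares of all genes. CHI-B was listed as lower in every line but SnRK1aOX, and nothing is read from that recurrence. Over all listed targets, higher and lower together, the median in the authors' deposited tables lay between 1.12 in WT and 1.68 in SnRK1aOX. ZAT10, a zinc finger regulator of abiotic stress, had 1.87 in snrk1a, 2.08 in jmj15 and 1.83 in crf6, against 1.12 in WT as log2 fold changes in the authors' deposited tables. WRKY33, a regulator of defence against necrotrophs, had 1.53 in snrk1a, 1.61 in jmj15 and 1.59 in crf6 in the authors' deposited tables. ACS2 and ACS5, given above, also belong to this list.

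Root cell markers were listed as lower with antimycin A in every line. They were chosen with earlier results of these data known, so the counts are a description. Of 9 genes of root hairs and endodermis, 9 were listed as lower in snrk1a, 6 in jmj15, 7 in crf6, 5 in SnRK1aOX and 7 in WT, and none as higher, where 3.67% (SnRK1aOX) to 10.1% (snrk1a) of all genes were listed as lower. The median of those listed was -2.77 in snrk1a, -2.32 in jmj15, -2.25 in crf6, -1.91 in SnRK1aOX and -2.56 in WT in the authors' deposited tables. Their summed normalised count in jmj15 was 174 to 276 with antimycin A and 591 to 1257 under mock, and in WT 612 to 712 with antimycin A and 1504 to 2919 under mock. Sums of snrk1a were 267 to 337 with antimycin A and 1661 to 2545 under mock. Those of crf6 were 490.3 to 544 with antimycin A and 1777 to 2577 under mock, and those of SnRK1aOX 206 to 483 with antimycin A and 478 to 1411 under mock. The sums cover the listed markers only, a set that differs between lines. In treated snrk1a 2 of 27 values were at or near 0, against none in the other groups. None of 6 green tissue markers was listed. The part of these shifts in the ERF values was not tested.

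Among the 1125 genes in every table, those whose log2 fold changes over the 5 lines came closest to those of an ERF were ranked by the root mean square difference. For ABR1 the nearest were BPS3 at 0.19 and AT5G40690 at 0.23. For AT1G71520 they were MAPKKK19 at 0.65 and AT1G17147 at 0.85. Their highest values, 5.19 and 4.47 in the authors' deposited tables, were in jmj15, as for AT1G71520. A ranking by closeness favours that, so nothing is read from it. For ERF1A the nearest were AT4G16680 at 0.15 and AT3G22060 at 0.22, for ERF6 AT4G28085 at 0.29 and UGT73B3 at 0.32, and for ERF109 AT1G76640 at 0.53 and ASPGB1 at 0.82. These distances are over 5 lines, from the authors' deposited tables, and are a description.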

How the data were processed

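The 30 libraries were grouped by the line, treatment and replicate number in the sample titles. Columns named kin10-2 and KIN10V17 were read as snrk1a and SnRK1aOX, since SnRK1a is also called KIN10 and the second name shows no mutant allele, an assignment that the labels do not spell out. Bowtie 0.12.2 and TAIR10 were used for alignment, per the submitters' processing notes. How genes were counted, normalised and tested is not given in the sources used here.

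The deposited tables, 1 per line, give a signal for each library, taken here as a read count that the authors normalised within that table. They also hold the authors' log2 fold change, p-values and q-values, and the deposited tables of WT and jmj15 also the −log10 of q, which was not used. Background shares use the number of genes tested that p, q and rank imply. Depth is unknown, and whole reads were not recovered: a share of 97% or more of the low values came within 0.1 of whole multiples of a step in 4 of 30 libraries, and a smaller share in the others. Scaling for library size alone was therefore not shown. The 10 genes, the gene lists and the motifs were chosen with earlier results of these data known.

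The design named a test for raw counts first and limma for adjusted values second, and adjusted values were found. Here limma 3.58.1 (R 4.3.3) was fitted to log2(value + 1) with a variance trend and no filter, per table for the changes and over 2 tables for their differences. The code was tested on simulated counts, drawn with the same dispersion for every gene and with no selection by q afterwards. The deposited values differ in this, so that test bears on the code only. Named genes are the 10 ERFs, at most 4 listed genes per list with the highest mean absolute log2 fold change, the 2 nearest patterns and neighbouring ERFs. TINY, TINY2, CHI-B and ACO5 are named besides, as genes listed as lower in most lines. Alternatives were pseudocounts of 0.5 and 10, a mean value of at least 10, no trend, median ratio scaling, a replicate block, stricter limits on the authors' calls and leaving out each library. Promoters are the 300 bases before each gene's start in TAIR10.1.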

Additional observations from a re-analysis of the deposited data

Results flagged for a closer look

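A difference between lines flagged 2 of the ERFs. The log2 change of AT1G71520 with antimycin A was 3.23 larger in jmj15 than in WT, and that of ABR1 was 1.05 larger, both with a limma adjusted p under 0.05 for the difference itself. Both calls were near the limit: over 12 fits without 1 library, AT1G71520 lost its call in 7 and ABR1 in 9, and without the trend in limma's variance the adjusted p was 0.0622 and 0.0959. With median ratio scaling the difference of ABR1 was -0.55. For both genes all 3 mock libraries of jmj15 lay below all mock libraries of the other lines, in tables that were normalised separately. The share of all genes with such a separation was not counted. Over the 1125 genes in every table, mock jmj15 minus mock WT had a median of -0.49 on the log2 scale. Why the changes of these 2 genes differ was not tested.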

How the results depend on the processing

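Depth is unknown, so how far counting error limits the low values, such as mock ERF109, cannot be given. Of 31 differences, all kept their direction and their side of the adjusted p of 0.05 with pseudocounts of 0.5 and 10 and with a mean value of at least 10. At an authors' log2 fold change over 2, 5 ERFs remained higher in snrk1a, 5 in jmj15, 4 in crf6, 3 in SnRK1aOX and 4 in WT. The number of ERFs that differed in jmj15 minus WT, 2, was 0 without the trend, 1 with the replicate block (ABR1 at an adjusted p of 0.0725) and between 0 and 2 without 1 library. In SnRK1aOX minus snrk1a it was between 0 and 1. The replicate numbers gave no pairing: correlations of same-numbered libraries lay between -0.31 and 0.10, and the block changed no other call.

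Median ratio scaling centres tables that hold only changed genes, which shifts every difference by construction. Under it 23 of the 36 changes within a line moved by over 1 residual SD, all 36 staying above 0 (0.64 to 6.32), and 1371 genes passed in jmj15 minus WT, 1188 in SnRK1aOX minus WT and 1192 in SnRK1aOX minus snrk1a. With it 6 ERFs passed in jmj15 minus WT, 5 in SnRK1aOX minus WT and 5 in SnRK1aOX minus snrk1a. Signs turned for ERF6 (-1.34), ERF2 (-1.32), ERF1 (-1.20), ERF1A (-1.21) and ABR1 (-0.55) in jmj15 minus WT. They also turned for ERF1A in snrk1a minus WT (-0.017), for ERF2 (-0.23) and ERF1A (-0.55) in crf6 minus WT, and for AT1G71520 in SnRK1aOX minus WT (-1.69).

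Without 1 library, uncalled differences near 0 changed sign. In snrk1a minus WT, ERF6 ranged from -0.30 to 0.12 and ERF1A from -0.27 to 0.30. In jmj15 minus WT, ERF109 ranged from -1.33 to 0.54. In crf6 minus WT, ERF1 ranged from -0.20 to 0.21, ERF1A from -0.045 to 0.43 and ABR1 from -0.35 to 0.034. In SnRK1aOX minus WT, ABR1 ranged from -0.52 to 0.21 and AT1G71520 from -0.65 to 0.66. In SnRK1aOX minus snrk1a, ERF6 ranged from -0.58 to 0.017.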
